A study of Homo sapiens with 4 samples.

Results

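Small MAF proteins, the CNC transcription factors that pair with them and KEAP1 were followed in K562 cells treated with the thalidomide analog AC-1041. The members were taken by gene name from the gene probes of the arrays: the small MAF genes MAFF, MAFG and MAFK, the activators NFE2, NFE2L1, NFE2L2 and NFE2L3, the repressors BACH1 and BACH2, and KEAP1. All 10 genes had 1 probe each, which makes 10 of 14297 gene probes. K562 is an established human erythroleukemia line, and AC-1041 is a phthalimide that carries a morpholine group. On each of 4 two-colour arrays, RNA of cells treated for 4 h was hybridised together with RNA of control cells, and a treated-over-control ratio was read from each. Cy5 marked the treated RNA on the first pair of arrays (1 and 2), and Cy3 on the swapped pair (3 and 4). The labels call the control cells untreated and give no dose, while the methods name both a DMSO control and a dose of AC-1041.

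Small MAF proteins are bZIP factors that bind DNA but lack an activation domain of their own. As dimers with each other they act as repressors, and with a CNC protein they form the complexes that bind antioxidant response elements and MAF recognition elements. NRF2 (the product of NFE2L2) is held low by KEAP1, which presents it to a CUL3 ubiquitin ligase, and it is regulated largely as a protein. BACH1 occupies many of the same elements as a repressor and is released by heme. NFE2 is the erythroid and megakaryocytic member, known for its sites in the globin locus control regions.

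In treated cells MAFF and MAFG stood higher and NFE2 lower on every array that measured them. MAFF was 2.84-fold higher, MAFG 2.12-fold higher, and NFE2 was 2.48-fold lower. KEAP1 had a log2 ratio near 0 and MAFK was not well above background in either channel. The ratios of NFE2L1, NFE2L2, NFE2L3 and BACH1, and in size that of MAFF, differed between arrays 1 and 2 on one side and arrays 3 and 4 on the other, which had opposite dyes. The genes were grouped with their ratios on these arrays already known, so the ratios are given as a description and no p-value for treatment is attached to a member.

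Promoter windows of RefSeq (GRCh38.p14, 250 bases before to 50 after a start) were at hand for 8 of the 10 genes, 14 windows in all, with none used here for MAFK and NFE2. The windows were searched on both strands for the antioxidant response element core (TGACNNNGC), the NF-E2 or AP-1 core (TGANTCA), the palindromic MAF recognition element (which holds the NF-E2 or AP-1 core), the cyclic AMP response element (TGACGTCA), a C/EBP-ATF element core (TGATGNAA) and a heat shock element core (GAANNTTC). Those of MAFF and BACH1 are shown because MAFF had the highest ratio of the group and the BACH1 window held the only NF-E2 or AP-1 core found. Each sequence ends at the base before the start, and capitals mark the matches.
MAFF, chr22:38201744-38201993, plus strand: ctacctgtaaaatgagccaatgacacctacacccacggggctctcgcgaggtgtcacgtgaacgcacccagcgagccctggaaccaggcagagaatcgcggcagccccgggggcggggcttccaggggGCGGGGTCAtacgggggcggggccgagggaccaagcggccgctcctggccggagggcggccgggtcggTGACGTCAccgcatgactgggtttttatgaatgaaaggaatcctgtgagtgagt
BACH1, chr21:29298672-29298921, plus strand: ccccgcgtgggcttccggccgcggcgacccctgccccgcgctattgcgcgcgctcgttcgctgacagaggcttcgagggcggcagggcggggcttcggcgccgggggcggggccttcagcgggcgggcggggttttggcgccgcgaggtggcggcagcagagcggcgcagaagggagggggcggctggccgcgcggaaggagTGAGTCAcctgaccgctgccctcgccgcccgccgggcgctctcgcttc

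In the MAFF window the antioxidant response element core lay on the opposite strand with its first base at -122, and the cyclic AMP response element began at -54. The other MAFF window held none of the motifs. In the BACH1 window shown, the NF-E2 or AP-1 core began at -48. One KEAP1 window held 2 antioxidant response element cores and the BACH2 window 1 cyclic AMP response element, and no searched motif was found in the windows of MAFG, NFE2L1, NFE2L2 and NFE2L3. Of all 35116 windows in the table, 13.3% held the antioxidant response element core, 7.71% the NF-E2 or AP-1 core and 1.85% the cyclic AMP response element. The C/EBP-ATF element core was in 3.62% and the heat shock element core in 6.77%, and no member window held either. The palindromic MAF recognition element was in none of all the windows, so nothing is read from its absence in the members. A match of letters is not evidence of binding.

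The arrays were of unequal quality. Probes well above background numbered from 5941 to 7403 per channel on arrays 1 and 2 and from 8982 to 9515 on arrays 3 and 4, so the quality of an array cannot be told apart from its dye orientation. No gene probe was saturated. Across the 8852 probes tested, log2 ratios correlated at 0.81 for arrays 1 and 2 and at 0.94 for arrays 3 and 4, whereas pairs of opposite orientation gave -0.28 to -0.11. The limma fit therefore held a term for the dye, and its standard errors rest on arrays of the same orientation. The SD given with each ratio is over all arrays. It is not stated which culture went on which array, so the spread may be partly technical. Of 11 erythroid K562 markers on the array, 9 passed the background test in each channel of every array, GATA1, KLF1, HBG1 and TFRC among them. Of 11 markers of other cell types on the array, CD79A and LYZ were among those that did so as well, MS4A1, CSF1R, ALB and CDH1 passed in no channel, and the part of these cell types in the results was not tested.

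Of the 9 members that passed the filter on dim probes, 5 were higher and 3 lower with a limma adjusted p below 0.05 (Benjamini-Hochberg over all probes), which is referred to as called. Among all probes 23.2% were called higher and 13.1% lower, and nothing is read from the members' counts, since their ratios were known. Called and at least 1.5-fold were MAFF, MAFG and BACH1 upward, against 5.98% of all probes, and NFE2 downward, against 1.16%. BACH1 passed the filter only through the treated channel, in which it is high, so its call adds nothing to this count. At least 2-fold were MAFF and MAFG upward, against 1.43% of all probes, and NFE2 downward, against 0.158%. Of the 8 tested members with all 4 arrays, 3 went the same way on each (MAFF, MAFG and BACH2), against 25.8% of probes. The median log2 ratio of the tested members was 0.22, and that of all probes was 0.01.

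**Figure D1:**
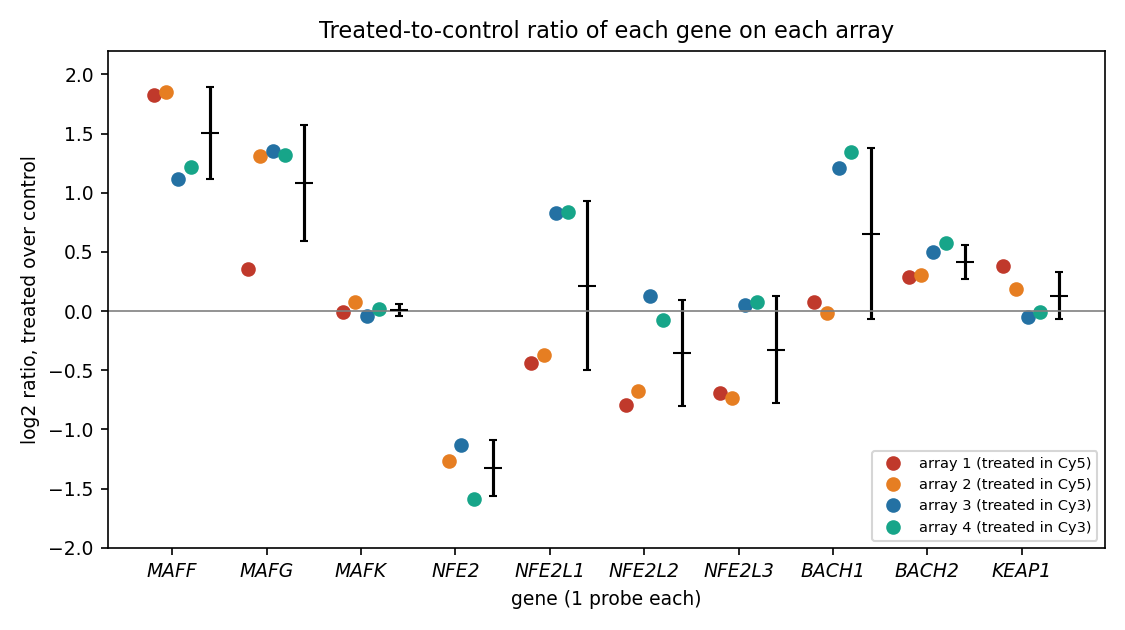
Log2 ratio of treated to control cells (vertical axis) for each of the 10 genes (horizontal axis), with 1 point per array coloured by array, and the mean with its SD over arrays in black. MAFF and MAFG lie above 0 and NFE2 below 0 on every array shown, while NFE2L1 and BACH1 separate by dye orientation and the array 1 spot of NFE2, marked as an outlier, is left out.

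MAFF encodes the small MAF that is known to be inducible by stress and cytokines. The MAFF probe maps to hg18 chromosome 22 (36941930 to 36941989, plus strand). Treated over control, the log2 ratio stood at 1.83 and 1.85 on arrays 1 and 2, and at 1.12 and 1.22 on arrays 3 and 4. All 4 arrays were thus well above 0, and the pair with the treated RNA in Cy5 stood above the pair with it in Cy3. The mean was 1.5 ± 0.39 (SD, n = 4 arrays) with a standard error of 0.063 in the fit, the 31st highest of 8852 probes. In normalized log2 intensity the control channel read 10.65, 10.87, 11.10 and 11.23 on arrays 1 to 4, and the treated channel 12.48, 12.73, 12.22 and 12.44. The lowest treated value lay above the highest control value. MAFF was the only member called also without the dye term.

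MAFG encodes a widely expressed small MAF and a common partner of NRF2. Its probe lies on chromosome 17 of hg18, minus strand, from 77473075 to 77473134. Array 1 gave a log2 ratio of 0.35, array 2 of 1.31, array 3 of 1.35 and array 4 of 1.32. Arrays 2 to 4 lay within a narrow range in both dye orientations, and array 1 stood apart below them. The mean was 1.08 ± 0.49 (SD, n = 4), with a standard error of 0.14, and the ratio without array 1 was 1.32. Control intensities were 14.83, 14.28, 14.43 and 14.62 on the log2 scale and treated ones 15.18, 15.59, 15.78 and 15.94, so the channels did not overlap. Array 1 had the highest control and the lowest treated value. Without the dye term MAFG was no longer called.

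MAFK, the remaining small MAF gene, was not well above background in either channel of any array (probe on chromosome 7 of hg18, 1546815 to 1546874). It was not tested and no fold is given.

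NFE2 encodes the large subunit of the erythroid factor NF-E2, which pairs with small MAF proteins. Its probe lies on chromosome 12 of hg18, minus strand, from 52972246 to 52972305. The log2 ratio was -1.26 on array 2, -1.13 on array 3 and -1.59 on array 4. The array 1 spot was marked as non-uniform and left out of the fit, and its ratio was -0.81. In the fit both dye orientations gave falls of like size, but array 2 alone stood for the treated RNA in Cy5. The fitted ratio was -1.31 with a standard error of 0.11 and an SD of 0.24 over 3 arrays, the third lowest of all 8852 probes. Control intensities on arrays 2, 3 and 4 were 15.35, 15.21 and 15.19 on the log2 scale and treated ones 14.09, 14.08 and 13.60, so that every treated value lay well below every control value. With the array 1 spot kept, the fitted ratio was -1.20, and without the dye term NFE2 was no longer called. As in any bulk sample, fewer cells expressing a gene and less RNA per cell cannot be told apart.

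**Figure D2:**
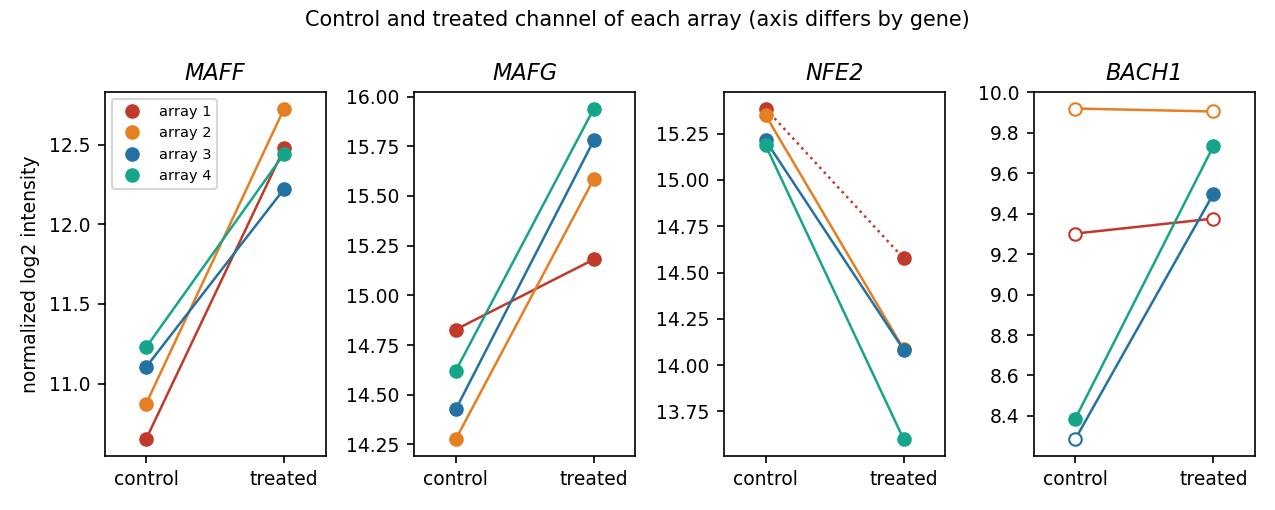
Normalized log2 intensity (vertical axis, range differs by gene) in the control and the treated channel for MAFF, MAFG, NFE2 and BACH1, with a line joining the 2 channels of each array. Filled points were well above background and open points were not, and the dotted line is the outlier spot of NFE2 on array 1. MAFF and MAFG rise and NFE2 falls on each array, while for BACH1 the lines of arrays 1 and 2 are flat and their points open.

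NFE2L1 encodes NRF1, an endoplasmic reticulum bound factor known for driving proteasome genes. Its probe, designed on a cDNA clone, lies on chromosome 17 of hg18 from 43493788 to 43493847. The log2 ratio was -0.44 and -0.37 on arrays 1 and 2 and 0.83 and 0.84 on arrays 3 and 4. The sign thus differed between the array pairs, although each array measured both channels well above background, and dye and array quality cannot be told apart. The mean of 0.22 ± 0.71 (SD, n = 4) was called higher, but its SD exceeds it, and the call was lost without array 3 and without array 4.

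NFE2L2 encodes NRF2, the main activator of antioxidant genes. The probe, on chromosome 2 of hg18, minus strand, from 177837664 to 177837723, was designed on a transcript record with a partial coding sequence. Its log2 ratio was -0.79 and -0.67 on arrays 1 and 2 and 0.13 and -0.08 on arrays 3 and 4. Only the arrays with the treated RNA in Cy5 stood clearly below 0, and on these the treated channel was not well above background. The mean was -0.35 ± 0.45 (SD, n = 4), and the call was lost without array 4.

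NFE2L3, whose product NRF3 is a further CNC activator, showed nearly the same values (probe on chromosome 7 of hg18, 26191006 to 26191065). They were -0.69 and -0.74 on arrays 1 and 2 and 0.05 and 0.08 on arrays 3 and 4. The mean was -0.32 ± 0.45 (SD, n = 4), with the fall limited to one orientation, and the call was lost without array 3 and without array 4. None of these 3 NRF genes was called without the dye term.

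BACH1 encodes the heme-regulated repressor of antioxidant response elements. Its probe was designed on transcript variant 3 and lies on chromosome 21 of hg18 from 29655984 to 29656043. The log2 ratio was 0.07 and -0.01 on arrays 1 and 2 and 1.21 and 1.35 on arrays 3 and 4. On arrays 1 and 2 neither channel was well above background, whereas on arrays 3 and 4 the treated channel was, with the control channel so on array 4 alone. The mean was 0.65 ± 0.72 (SD, n = 4). Its call was lost without the dye term.

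BACH2, a related repressor best known from B cells, was dim as well (probe on chromosome 6 of hg18, minus strand, 90693326 to 90693385). Its log2 ratios of 0.28, 0.31, 0.50 and 0.58 on arrays 1 to 4 were all above 0, with a mean of 0.42 ± 0.14 (SD, n = 4). Both channels were well above background on arrays 3 and 4 only, and the call was lost without the dye term.

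KEAP1, the adaptor that targets NRF2 for degradation, was bright in both channels of every array (probe on chromosome 19 of hg18, minus strand, 10458262 to 10458321). The log2 ratio was 0.38, 0.19, -0.05 and -0.01 on arrays 1 to 4. The mean of 0.13 ± 0.20 (SD, n = 4) was smaller than its SD, and KEAP1 was the only tested member not called.

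Whether a ratio differed between the dye orientations is a measure that the choice of genes did not use, and it was tested with the dye term. The term was called for 5 of the 9 tested members, BACH1 included, against 57.5% of all probes. For BACH1 the log2 ratio with the treated RNA in Cy5 minus that in Cy3 was -1.25, which is given without a test because it passed the filter only through its treated channel on arrays 3 and 4. The same difference was -1.24 for NFE2L1 (limma adjusted p = 0.00018), -0.78 for NFE2L3 (0.0014), -0.76 for NFE2L2 (0.0026) and 0.67 for MAFF (0.0030). For MAFF the orientations differed in size but not in sign. For NFE2 the difference was 0.10 (limma adjusted p = 0.73) and for MAFG -0.50 (0.15), with BACH2 at -0.24 (0.13) and KEAP1 at 0.31 (0.076), none of which passed the threshold. The value for NFE2 rests on array 2 alone for the treated RNA in Cy5. With median centring the terms of NFE2 and KEAP1 passed as well, and without array 2 those of MAFG and KEAP1, which made 7 members in either case.

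**Figure D3:**
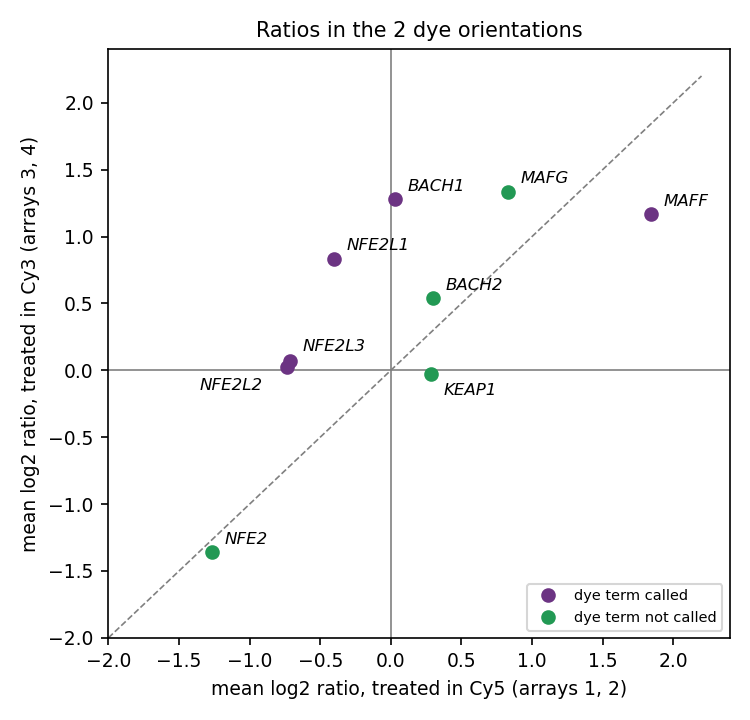
Mean log2 ratio of treated to control cells with the treated RNA in Cy5 (horizontal axis) against that with it in Cy3 (vertical axis) for the 9 tested genes, with the dashed line marking equal values and the colour showing whether the dye term was called. NFE2 lies beside the line at about -1.26 (array 2 alone) and -1.36, MAFF and MAFG lie above 0 on both axes, and NFE2L1 lies in the quadrant of opposite signs at -0.40 and 0.83.

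The dim members had other values in the processed signals of Feature Extraction, which differ in both background correction and normalization. The local background beside the spots had medians from 61 to 71 intensity units, whereas Feature Extraction subtracted a fitted background with medians from 139 to 473. With its processed signals the mean log2 ratio was 1.41 ± 0.91 (SD, n = 4) for BACH1 in place of 0.65, 0.68 ± 0.22 for BACH2 in place of 0.42, -0.91 ± 1.12 for NFE2L2 in place of -0.35 and -0.56 ± 0.77 for NFE2L3 in place of -0.32. With no background subtracted and the same loess normalization, these 4 genes stood at 0.61, 0.40, -0.35 and -0.31, close to the values with normexp. On these signals BACH1 was above 0 on each array, at 0.35, 0.95, 2.07 and 2.25. The bright members moved little, to 1.67 ± 0.56 for MAFF, 1.13 ± 0.32 for MAFG and 0.11 ± 0.23 for KEAP1. On these signals too MAFG was lowest on array 1, at 0.72.

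**Figure D4:**
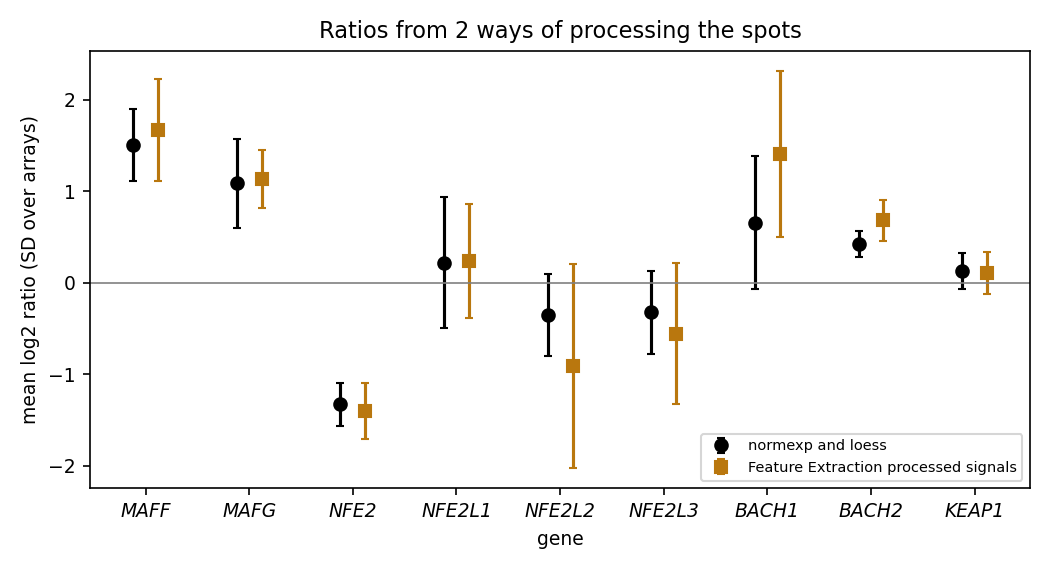
Mean log2 ratio of treated to control cells with its SD over arrays (vertical axis) for the 9 tested genes (horizontal axis), from normexp and loess (circles) and from the processed signals of Feature Extraction (squares). BACH1, BACH2, NFE2L2 and NFE2L3 lie farther from 0 with the processed signals, and MAFF, MAFG, NFE2L1 and KEAP1 shift by less than their SD.

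Related genes were read from 5 lists, which were chosen with earlier results of these data known. Apart from 7 genes named whatever their values, those named are the most extreme called genes of each list. The shares and p-values of list genes therefore describe these arrays and are not independent support. Of 30 NRF2 target genes, 28 were tested, 10 rose (35.7%, against 23.2% of all probes) and 2 fell (7.14%, against 13.1%), with a median log2 ratio of 0.16. SLC7A11, the cystine transporter subunit, had the largest value at 2.62 ± 1.22 (SD, n = 4; limma adjusted p = 4.4e-06). GCLM, the modifier subunit of the enzyme that makes the glutathione precursor, reached 1.48 ± 0.88 (adjusted p = 2.7e-05). The quinone reductase gene NQO1 rose by 0.42 ± 0.91 (adjusted p = 0.0021), with values of -0.34 and -0.39 on arrays 1 and 2 and 1.27 and 1.14 on arrays 3 and 4. HMOX1, the heme oxygenase gene classically repressed by BACH1, had a log2 ratio of -0.01 ± 0.21 (adjusted p = 0.91) and was well above background in each group on 2 arrays. SQSTM1, whose protein binds KEAP1, had 0.57 ± 0.67 (adjusted p = 0.052) and was below 0 on array 1 alone. The lowest called members were the aldo-keto reductase genes AKR1C3 (-0.27 ± 0.64) and AKR1B1 (-0.26 ± 0.22). AKR1B1 was below 0 on all 4 arrays, whereas AKR1C3 stood at -0.87 and -0.74 on arrays 1 and 2 and at 0.43 and 0.11 on arrays 3 and 4.

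Of 20 genes for turnover and processing of the NRF proteins, 17 were tested, 2 rose (11.8%, against 23.2% of all probes) and 3 fell (17.6%, against 13.1%), with a median log2 ratio of 0.03. Without array 2 the median was -0.02 and without array 3 it was -0.0049. CUL3, the scaffold of the KEAP1 ubiquitin ligase, fell by 0.64 ± 0.13 (SD, n = 4; limma adjusted p = 0.00035) and was lower on all 4 arrays, from -0.75 to -0.47. GSK3B, a kinase that marks NRF2 for a second ligase, fell by 0.43 ± 0.35 (adjusted p = 0.0044). BTRC, the substrate receptor of that ligase, rose by 0.33 ± 0.06 (adjusted p = 0.0059). OGT, which modifies many nuclear proteins with a sugar, was called higher at 0.40 ± 0.56 (adjusted p = 0.0039). Its sign differed between the orientations, however. OGT stood at -0.13 and -0.02 on arrays 1 and 2 and was above 0 on arrays 3 and 4 only.

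All 36 genes of the proteasome list, known as NRF1 targets, were tested, and 31 of them were not called. The median log2 ratio was -0.03, with 3 higher (8.33%, against 23.2% of all probes) and 2 lower (5.56%, against 13.1%). PSMD14 rose by 0.28 ± 0.20 on the log2 scale (SD, n = 3), and PSMD12 and PSMD5 fell by 0.64 ± 0.60 and 0.31 ± 0.21 (SD, n = 4). PSMD11 was called higher at 0.26 ± 0.63 (SD, n = 3; limma adjusted p = 0.048), but its sign differed between the orientations. It stood at -0.29 on array 2 and at 0.81 and 0.79 on arrays 3 and 4.

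Of 15 globin, heme synthesis and other genes with known NF-E2 sites, 13 were tested. None was called higher by limma, against 23.2% of all probes, while 5 were called lower (38.5%, against 13.1%). At an unadjusted p under 0.05 none rose and 7 fell, but the share of all probes at that threshold was not computed. The median log2 ratio was -0.21, against 0.01 over all probes. HBD, the delta globin gene, fell by 0.50 ± 0.55 in the mean (limma adjusted p = 0.0046), but it was above 0 on array 1. It stood at 0.19 and -0.32 on arrays 1 and 2, at -0.87 on array 3 and lower still on array 4. Its dye term was called as well (limma adjusted p = 0.0050), so the size of this fall depends on the orientation. On the list the median was 0.02 for arrays with treated cells in Cy5 and -0.51 for those in Cy3. HBG1, which shares sequence with HBG2 so that their RNA may not be told apart, showed the widest split, at 1.02 and 2.03 on arrays 1 and 2 and -1.75 and -2.11 on arrays 3 and 4, and was not called (adjusted p = 0.32).

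Among 17 other bZIP genes, which encode large MAF and AP-1 or ATF proteins, 13 were tested, 7 rose (53.8%, against 23.2% of all probes). None was called lower by limma, against 13.1% of all probes. At an unadjusted p under 0.05 none fell either, a threshold at which no share of all probes was computed. Their median was 0.33. ATF3 reached 2.10 ± 0.39 (SD, n = 4; limma adjusted p = 5.5e-05) and JUN 1.77 ± 0.41 (adjusted p = 2.1e-05), both higher on all 4 arrays. The paper had named both genes as induced, from these same arrays, so these values are not a separate test. MAF, a large MAF gene, was not well above background in any channel and was not tested.

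**Figure D5:**
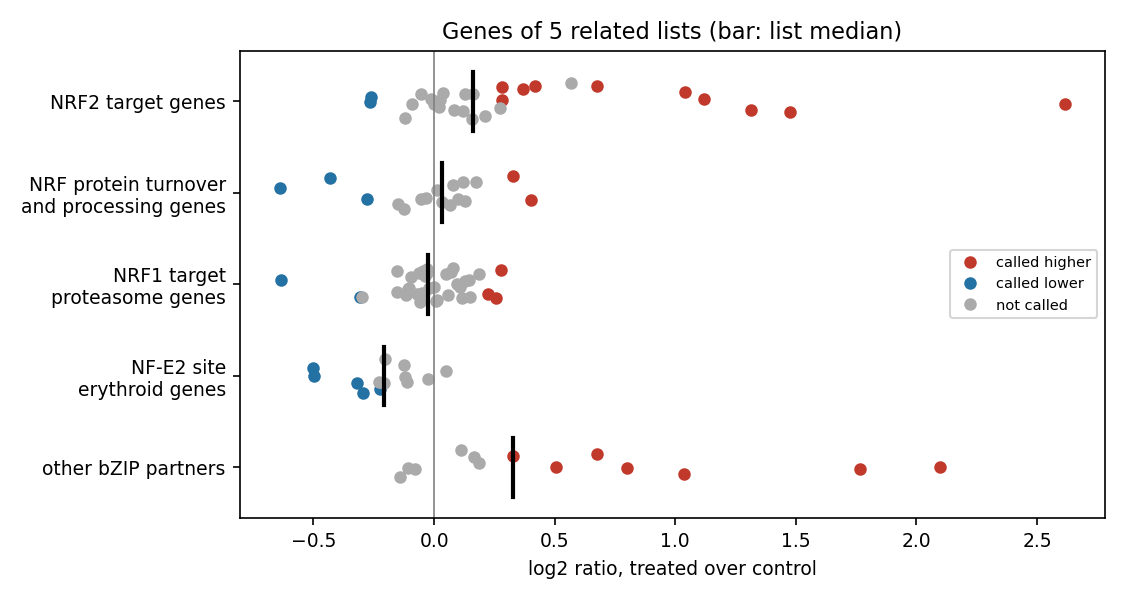
Log2 ratio of treated to control cells (horizontal axis) for each tested gene of the 5 related lists (rows), with red for called higher, blue for called lower, grey for not called and a black bar for the list median. The NRF2 target list has a tail of rises up to 2.62, the proteasome genes lie close to 0, and nearly all genes with NF-E2 sites lie below 0.

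The probes whose ratios over the 4 arrays came nearest to those of MAFF were those of HSPA1L, at a root mean square difference of 0.20 on the log2 scale, CXCL3 (0.21), CXCL2 (0.26), RELB (0.27) and DDIT3 (0.28). Likeness over 4 ratios of one comparison describes these arrays only.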

How the data were processed

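The 4 two-colour Agilent arrays of treated against control K562 RNA were analysed, with groups and dyes taken from the labels. The authors scanned the arrays and deposited, per the file headers, the intensity of every spot and its local background from Feature Extraction 9.5.1.1, together with processed intensity values and a log10 ratio of the Cy5 and Cy3 channels. The deposited series table holds log10 ratios that read treated over control, since 99.9% to 100% of values lay within 0.001 of the array files after the sign was turned on arrays 3 and 4.

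Background was corrected with normexp (offset 50) and ratios by loess (span 0.3, control spots at weight 0). Outlier spots, from 1.57% to 8.08% per array, were left out. Probes that passed the background test on 2 or more arrays, in 1 or both channels, entered a log2 fit by limma 3.58.1 (R 4.3.3) of treatment plus dye, with p-values adjusted by Benjamini-Hochberg. The fit was tested on simulated data with spreads of 2 kinds, and under both the false calls somewhat exceeded the nominal rate, more so with the posterior variance of each probe. Channel levels were further scaled between arrays by Aquantile. Probe names and positions are those of the files (hg18). The members and lists were chosen with earlier results of these data known. Named were all members, up to 2 called genes in each direction per list, 7 genes fixed whatever their values, and the 5 probes nearest to the highest member. Where a list gene had several probes the brightest stood for it. Alternatives were other background corrections, normalizations, filters, thresholds, no dye term and each array left out. All arrays lay on 1 slide with one scan date, so no block could be fitted. The number of arrays limits the precision. SKP1, HBG2 and BATF3 were not analysed here. Some results for single genes are not reported here.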

Additional observations from a re-analysis of the deposited data

Results flagged for a closer look

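MAFG had 1 array far from the others, array 1 at a log2 ratio of 0.35 against 1.31 to 1.35 on arrays 2 to 4. The distance to its nearest neighbour took up 0.956 of the spread from lowest to highest, past the critical value of Dixon's test for 4 values. All 8 members with 4 arrays were tested for this, and MAFG was the only one to pass. The 4 values are pairs of opposite dye, so the usual rate of about 1 in 20 passing by chance may not hold. On array 1 the share of outlier spots was also highest (8.08%), and its part in this value was not tested.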

How the results depend on the processing

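In none of the 101 refits of a single member did a ratio change sign, but many of these refits could not differ. Filters leave a ratio as it is, and so does dropping the dye term where all 4 arrays are measured. Leaving out 1 array keeps both orientations in the fit, so a sign that differs between them does not show. By more than the SD over arrays 6 moved, all with the processed signals or the series table (BACH1, BACH2 and NFE2L2). The series table nearly repeats the processed signals, so each of these genes is counted under both. Without the dye term 1 member was called higher (MAFF) and 0 lower, against 3 and 1 at an unadjusted p under 0.05 (limma), since that fit counts the difference between orientations as error. Calls over all probes fell likewise, from 36.3% to 0.604% (50 higher and 4 lower). With only probes that every channel of every array measured above background, 5 members were tested. Of these, 3 were called higher and 1 lower, where 42.2% of all 5587 probes were called (1274 higher and 1086 lower). A dye term was called for 2 of them (5 to 7 under the other alternatives), and the share of all probes for that term was not computed there. The median of the other bZIP genes was 0.59 under this filter. In the main fit, called and at least 1.5-fold were 3 higher (against 5.98% of all probes) and 1 lower (against 1.16%). That bZIP median was 0.45 with the processed signals, 0.45 with the series table and 0.19 with no filter. Without each array in turn, 4 to 5 members were called higher and 0 to 3 lower, the lowest without array 4, where 2 were lower at an unadjusted p under 0.05. Over all probes 47.0%, 41.9%, 18.0% and 12.9% were called without arrays 1, 2, 3 and 4. NFE2 could not be fitted without array 2, 3 or 4. The NRF2 target median then ranged from 0.17 to 0.26, the highest without array 3. Median centring raised the share of all called probes that were higher from 63.9% to 79.5%. Apart from the dye term and the number of probes or arrays used, the cause was not tested. Low signal on arrays 1 and 2 limits BACH1, BACH2, NFE2L2 and NFE2L3.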
